A study of Mus musculus with 6 samples.

Results

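In whole embryonic hearts, 7 genes of the atrial programme were followed: the orphan nuclear receptors Nr2f1 (COUP-TFI) and Nr2f2 (COUP-TFII), the T-box factor Tbx5, the myosin chains Myl7, Myl4 and Myh6, and Stard10, a lipid transfer protein of the START family. They are 7 of the 46983 genes counted in 6 libraries, and were taken by symbol with their levels in these hearts already known. Differences between the genotypes are therefore given for these 7 genes as a description with standard errors, and no p is read as evidence about them. Each library held the RNA of 1 whole heart at E13.5, from 3 embryos labelled TnnT2Cre;Wt1flox (mutant, replicates 1, 5 and 10) and 3 labelled wild type (replicates 2, 3 and 5), all on a C57BL/6 x DBA/2 background. The methods of the study describe the mutants as carrying Tnnt2 Cre over Wt1 flox/flox, and the controls as Wt1 flox/flox without Cre, so that all 6 embryos carry floxed Wt1 and no heart here has the Cre alone.

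The Cre is driven by the cardiac troponin T promoter, which is active in cardiomyocytes, and the methods and results of the study also describe recombination in some epicardial cells. The hearts were not dissected into chambers, so a gene named for the atrium could not be checked against separate atria. In such bulk samples, fewer cells of a type and less RNA per cell cannot be told apart. Wt1, the floxed gene, stood at 20.9, 17.3 and 10.2 FPKM (fragments per kilobase of gene, scaled to the total of the library) in wild type replicates 2, 3 and 5, and at 9.29, 17.2 and 17.4 FPKM in mutant replicates 1, 5 and 10. The groups overlapped (log2 fold change -0.10, SE 0.31, adjusted p = 0.990 in edgeR's quasi-likelihood test), so the level of Wt1 in the whole heart does not check the labels.

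Atria and ventricles of the mouse heart use different sets of contractile proteins. Myl7 and Myl4 are the regulatory and essential light chains of atrial myosin, Myh6 encodes the alpha heavy chain that prevails in atria before birth, and Myl2, Myl3 and Myh7 are their counterparts in the ventricle. COUP-TFII is known to hold atrial cardiomyocytes in their atrial state and to act against ventricular genes, its close relative COUP-TFI is also found in atrial cells, and Tbx5, which acts with Nkx2-5 and Gata4, is needed for the atria, the conduction system and the left ventricle.

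Library totals lay between 44244665 and 56373393 counts, the lowest in wild type replicate 5. That heart also stood apart in its relation between level and gene length: Spearman's rank correlation between gene length and centred log2 level, across 11782 genes, was -0.557 in wild type replicate 5 and between -0.0620 and 0.464 in the other hearts. Over all genes, edgeR's quasi-likelihood test called 0 of 17473 genes (0%) at a Benjamini-Hochberg adjusted p under 0.05, while 1002 (5.73%) had an unadjusted p under 0.05 and DESeq2 called 132 of 19493 (0.677%). Without wild type replicate 5 the edgeR test called 44 of 17814 genes (0.247%). Biological replication of the hearts comes from separate embryos, and the common biological coefficient of variation was 0.209.

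All 7 genes passed the filter on low counts. Of these, 6 had a negative log2 fold change after TMM scaling and 1, Myl4, a positive one smaller than its error, and the median of the 7 log2 fold changes was -0.35 against -0.0010 over all genes tested. None of the 7 was called by edgeR (0 of 7, against 0% of all genes), and DESeq2 called 1, Nr2f1 (0.677% of all genes it tested). In edgeR's test 4 had an unadjusted p under 0.05 with a lower level in the mutant (2.59% of all genes did). In counts scaled to a common library total by TMM (CPM), the groups did not overlap for Nr2f1 and Nr2f2, both lower in the mutant, a pattern that 4.59% of all genes tested shared. None of the 7 was higher without overlap (6.61% of all genes were), and in either direction 11.2% of all genes did not overlap. Since the genes were picked from this same contrast, these counts describe the choice.

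**Figure D1:**
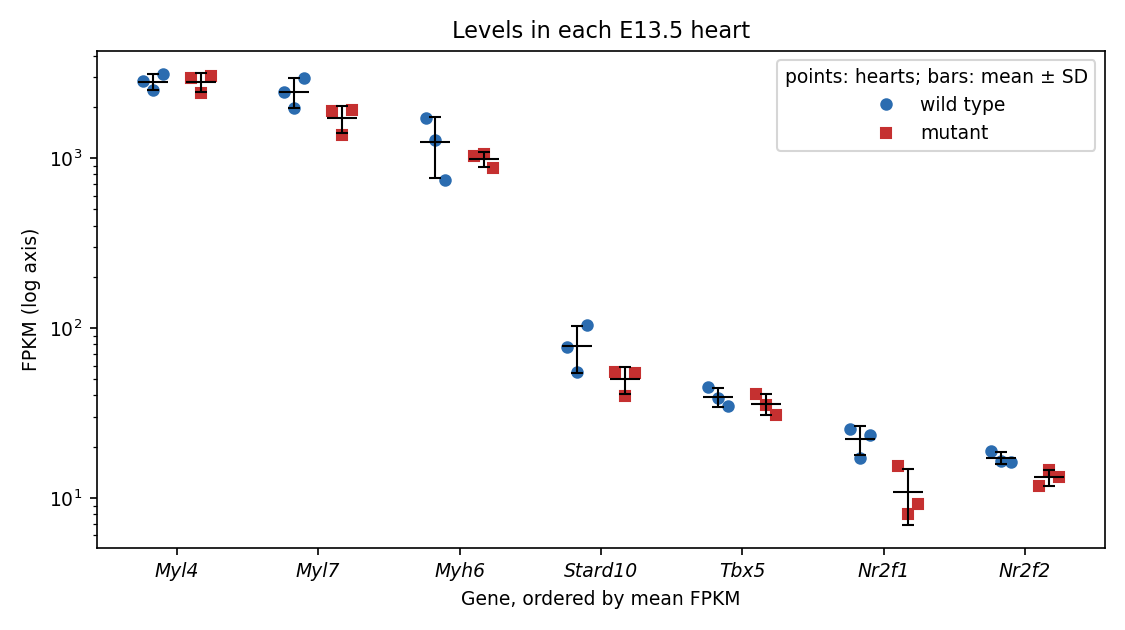
Level of each of the 7 genes in FPKM on a log axis, with the genes ordered by their mean. Each point is 1 heart (circles wild type, squares mutant) and the bars give the mean and SD of 3 hearts. Myl4, Myl7 and Myh6 lie at 747 FPKM and above and the other genes at 104 FPKM and below, and the mutant points lie below the wild type points for Nr2f1 and Nr2f2, and only just below for Myl7 (1915 against 1962) and Stard10 (55.1 against 55.3).

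By level per length, the 7 genes spanned more than 2 orders of magnitude. Mean FPKM over the 6 hearts was 2808 for Myl4, 2087 for Myl7, 1117 for Myh6, 64.2 for Stard10, 37.5 for Tbx5, 16.5 for Nr2f1 and 15.2 for Nr2f2. Myl4 and Myl7 ranked 21 and 25 among all genes by mean FPKM, while Nr2f2 ranked 6528. Each gene stood above the next in 6 of 6 hearts, except Nr2f1, which stood above Nr2f2 in 4 of 6. That last order also depends on the gene length used. The FPKM values use 1599 bases for Nr2f1 and 2942 for Nr2f2, and over the longest coding transcript (3207 and 4222 bases) the levels became 8.20 and 10.6 on the same scale, with Nr2f2 the higher. For Myh6 the FPKM length was 1554 bases against 6113 in its longest coding transcript, a 3.93-fold gap, and its level per length was then 284. Differences between hearts for the same gene do not depend on these lengths.

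Nr2f1 lies on the minus strand of chromosome 13 (78188973 to 78199757, GRCm38, GENCODE M21, ENSMUSG00000069171). In the wild type hearts (replicates 2, 3 and 5, in this order from here on) it was counted 2255, 1556 and 1660 times, and in the mutant hearts (replicates 1, 5 and 10) 1257, 670 and 778 times. In FPKM these were 25.4, 17.3 and 23.5 against 15.4, 8.03 and 9.16. All 3 mutant hearts stood below all 3 wild type hearts, with mutant replicate 1 close under wild type replicate 3 and the other mutant hearts far lower. The mean was 22.0 ± 4.25 FPKM (SD, n = 3) in wild type and 10.9 ± 3.97 (SD, n = 3) in mutant hearts, a log2 fold change of -0.999 (SE 0.25) and the largest difference among the 7 genes. Leaving out any 1 heart kept it between -1.31 and -0.83.

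An antisense gene, A830082K12Rik, shares 2.42% of the exon bases of Nr2f1 on the opposite strand and was looked up after the values were seen. It had 326, 267 and 300 counts in wild type and 200, 150 and 155 in mutant hearts, again without overlap in CPM (log2 fold change -0.82, SE 0.21, adjusted p = 0.518 in edgeR's test). Whether counting took strand into account is not given in the sources used here, so how reads of the shared bases were assigned is not known.

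Nr2f2, on the minus strand of chromosome 7 (70351944 to 70366735, ENSMUSG00000030551), had 3060, 2731 and 2107 counts in wild type and 1768, 2239 and 2062 in mutant hearts. The levels were 18.7, 16.5 and 16.2 FPKM against 11.8, 14.6 and 13.2 FPKM. Here too the mutant hearts all lay below the wild type hearts, but the gap was narrow. Means were 17.1 ± 1.40 FPKM (SD, n = 3) and 13.2 ± 1.40 (SD, n = 3), a log2 fold change of -0.35 (SE 0.12), with a range of -0.42 to -0.25 over the hearts left out in turn. The lowest mutant heart differed between the receptors, since replicate 1 was lowest for Nr2f2 and highest for Nr2f1. Accordingly the ratio of Nr2f2 to Nr2f1 within a heart, in FPKM, was 0.738, 0.954 and 0.690 in wild type and 0.764, 1.82 and 1.44 in mutant hearts, and the groups overlapped through mutant replicate 1. The transcript B130024G19Rik on the opposite strand shares 7.46% of the exon bases of Nr2f2. It was read at no more than 82 counts in any heart, few beside the counts of Nr2f2.

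The other genes around the COUP-TFs were Nr2f6, the third and more distant COUP-TF relative, the FOG cofactors Zfpm1 and Zfpm2, the zinc finger partners Bcl11a and Bcl11b, the corepressor Ncor1, and the retinoid X receptors Rxra, Rxrb and Rxrg. Of these 9 genes, 4 were higher and 5 lower in the mutant hearts, and their median log2 fold change was -0.06 (from -0.11 without mutant replicate 1 to 0.0632 without wild type replicate 2, and also above 0 without wild type replicate 3). None was called by edgeR or by DESeq2, and 0 of 9 had an unadjusted p under 0.05. Nr2f6 stood at 34.4, 29.8 and 41.7 FPKM in wild type and 34.9, 28.9 and 33.8 in mutant hearts (log2 fold change -0.09, SE 0.15, adjusted p = 0.985 in edgeR's test). The same test gave 0.04 (SE 0.16, adjusted p = 0.990) for Zfpm2 and -0.12 (SE 0.16, adjusted p = 0.985) for Bcl11a. Rxrg had the smallest p of the list (-0.49, SE 0.35, adjusted p = 0.979) at levels of 0.508 to 1.44 FPKM.

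Tbx5, on the plus strand of chromosome 5 (119832668 to 119885219, ENSMUSG00000018263), had 4781, 4170 and 2959 counts in wild type and 4027, 3551 and 3142 in mutant hearts. Its levels were 44.8, 38.5 and 34.8 FPKM against 41.0, 35.4 and 30.8 FPKM. The levels of the 2 groups lay interleaved, with means of 39.3 ± 5.06 and 35.7 ± 5.13 FPKM (SD, n = 3 each). The log2 fold change was -0.11 (SE 0.13), smaller than its error, and it ranged from -0.20 (mutant replicate 1 left out) to -0.01 (wild type replicate 2 left out).

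Among 9 factors that act with or beside Tbx5 in the heart, 4 were higher and 5 lower, with a median of -0.05 (from -0.14 without wild type replicate 5 to 0.0707 without wild type replicate 2, and also above 0 without mutant replicate 5), and none was called by edgeR or DESeq2. Nkx2-5 (log2 fold change -0.09, SE 0.12, adjusted p = 0.985) and Gata4 (0.04, SE 0.16, adjusted p = 0.990, edgeR's test for both) differed by less than their errors. The 2 with an unadjusted p under 0.05, both lower (2.59% of all genes were), were Tbx2 and Tbx3, the T-box repressors that keep the conduction system and the atrioventricular canal from taking on chamber character. Tbx2 stood at 7.45, 10.6 and 10.97 FPKM in wild type and 7.03, 6.55 and 4.59 in mutant hearts (-0.65, SE 0.19, adjusted p = 0.638 in edgeR's test). Tbx3 stood at 5.92, 7.18 and 5.22 FPKM against 4.97, 3.98 and 3.55 (-0.53, SE 0.16, adjusted p = 0.646). For both the mutant hearts lay below the wild type hearts without overlap.

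Myl7, on the minus strand of chromosome 11 (5896637 to 5898782, ENSMUSG00000020469), had 80635, 65271 and 76685 counts in wild type and 56753, 41886 and 60003 in mutant hearts. In FPKM its levels were 2462, 1962 and 2938 against 1884, 1360 and 1915. By FPKM the 3 mutant hearts lay below the 3 wild type hearts, although the highest of them came near wild type replicate 3, and in CPM, after TMM scaling, the groups overlapped. The mean was 2454 ± 488 FPKM in wild type and 1720 ± 312 in mutant hearts (SD, n = 3 each), a log2 fold change of -0.48 (SE 0.20). Without wild type replicate 5, the heart with the highest level, it was -0.32, and without wild type replicate 3 it was -0.62.

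Myl4, the essential light chain, had nearly equal means. It lies on the plus strand of chromosome 11 (104550663 to 104595753, ENSMUSG00000061086) and had 169389, 153069 and 148479 counts in wild type and 162673, 135373 and 174894 in mutant hearts. Levels were 2825, 2514 and 3107 FPKM against 2950, 2401 and 3049 FPKM, with the 2 groups lying over each other. Means were 2816 ± 297 and 2800 ± 349 FPKM (SD, n = 3 each) and the log2 fold change was 0.02 (SE 0.16), between -0.08 and 0.12 when 1 heart was left out. The atrial light chains thus differed from each other within hearts: Myl7 per Myl4, in FPKM, was 0.871, 0.781 and 0.945 in wild type and 0.639, 0.566 and 0.628 in mutant hearts, without overlap. How often the ratio of other pairs of genes separates in this way was not computed.

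Myh6 lies on the minus strand of chromosome 14 (54941921 to 54966927, ENSMUSG00000040752), 3.76 kb from Myh7. It had 148234, 111243 and 51353 counts in wild type and 81958, 85960 and 72155 in mutant hearts. The levels were 1718, 1270 and 747 FPKM in wild type and 1033, 1060 and 874 FPKM in mutant hearts. The wild type hearts were spread so widely that the mutant hearts lay between them. Means were 1245 ± 486 and 989 ± 100.2 FPKM (SD, n = 3 each), with a log2 fold change of -0.30 (SE 0.26). Single wild type hearts set the size of this difference: it was -0.56 without replicate 5 and 0.0014 without replicate 2. Of 6923 stretches of 100 bases in Myh6 transcripts, 695 also occur in Myh7, and how many reads of either gene were lost as not uniquely mapped was not tested.

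Stard10 carries phospholipids between membranes. It lies on the plus strand of chromosome 7 (101317086 to 101346626, ENSMUSG00000030688), with 4141, 3030 and 4469 counts in wild type and 2736, 2007 and 2814 in mutant hearts. Levels were 76.7, 55.3 and 104 FPKM against 55.1, 39.6 and 54.5 FPKM. Wild type replicate 3 and mutant replicates 1 and 10 were almost level, and the groups overlapped in CPM. The mean was 78.7 ± 24.4 FPKM in wild type and 49.7 ± 8.82 in mutant hearts (SD, n = 3 each), a log2 fold change of -0.63 (SE 0.24). Without wild type replicate 5 it was -0.37, and without wild type replicate 3 it was -0.83.

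The other proteins with a START lipid-binding domain were read from a list of 16 symbols, of which 14 were in the files and 13 tested. Stard14 and Cert1, which were not found, are other names of Acot11 and Col4a3bp, which were. Of these 13, 8 were higher and 5 lower in the mutant hearts, the median being 0.09 (0.0195 to 0.123 with 1 heart left out, lowest without mutant replicate 5), and none was called by edgeR or DESeq2 or had an unadjusted p under 0.05. Dlc1, a GTPase-activating protein with such a domain, had the smallest p (0.36, SE 0.17, adjusted p = 0.909 in edgeR's test).

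Across the 6 hearts, Myl7 and Stard10 followed each other most closely of all pairs among the 7 genes. Their centred log2 levels (each gene's log2 CPM less its mean over the hearts) differed by a root mean square of 0.113, while the other pairs differed by 0.225 to 0.624. Both were highest in wild type replicate 5 and lowest in mutant replicate 5. Myh6 ran otherwise and was lowest in wild type replicate 5, the heart with the inverse length relation. Myl7 has a short transcript (590 bases) and Myh6 a long one (6113 bases in its longest coding transcript). Offsets that follow gene length used the lengths behind FPKM, 590 bases for Myl7 and 1554 for Myh6. Myh6 thus did not enter them at its full length, and the part of gene length in these patterns was not tested further. With such offsets the log2 fold changes were -1.0 for Nr2f1, -0.39 for Nr2f2 and for Myl7, -0.13 for Tbx5, 0.05 for Myl4, -0.31 for Myh6 and -0.58 for Stard10.

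**Figure D2:**
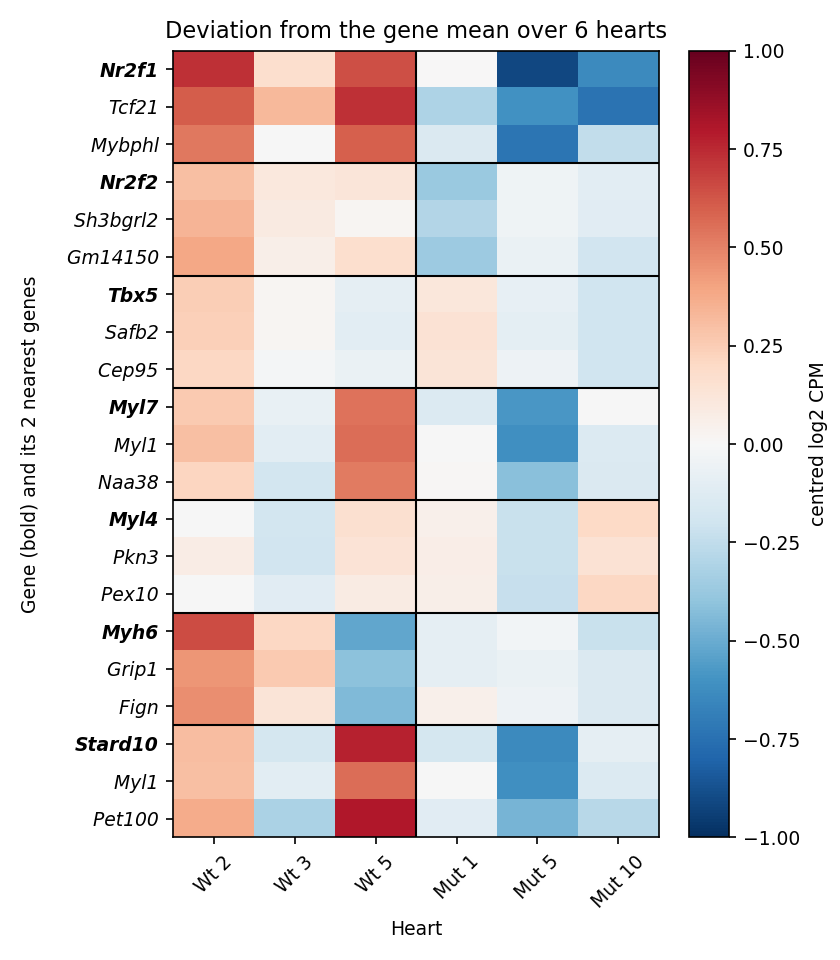
Heat map of the 7 genes (bold) and, under each, the 2 genes whose pattern over the 6 hearts lay nearest. Color gives the centred log2 CPM, red above and blue below the mean of the gene, with wild type hearts left of the line and mutant hearts right of it. Myl7 and Stard10 are red in wild type replicate 5 and blue in mutant replicate 5, while Myh6 is blue in wild type replicate 5.

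Among 10098 genes with a mean CPM of at least 10, the nearest to Nr2f1 were Tcf21, an epicardial and fibroblast transcription factor (root mean square difference 0.205), and Mybphl, a myosin-binding protein of the atria (0.218), against a median of 0.638 over these genes. Sh3bgrl2 (0.0558) and Gm14150 (0.0584) lay nearest to Nr2f2, Safb2 (0.0160) and Cep95 (0.0278) to Tbx5, and Pkn3 (0.0414) and Pex10 (0.0437) to Myl4. For Myl7 these were Myl1 (0.0792), an essential light chain known from skeletal muscle, and Naa38 (0.116). Myl1 (0.118) was also nearest to Stard10, followed by Pet100 (0.125), and Myh6 had Grip1 (0.105) and Fign (0.110). The root mean square difference also depends on how much a gene varies. Its median over the 10098 genes was 0.206 for Tbx5, 0.213 for Myl4 and 0.266 for Nr2f2. It was 0.371 for Myh6, 0.383 for Myl7 and 0.473 for Stard10. With 6 points per gene, these likenesses describe the hearts and carry no test.

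The bases before the start of the gene are shown for Myl7 and Stard10, the pair with the most similar pattern, and for Myh6, the only 1 of the 6 genes searched with a match to a motif searched. RefSeq start sites (GRCm38.p6) matched 6 of the 7 genes, the exception being Tbx5. The windows of 250 bases before the start hold no exon for Myl7 (chr11:5898783-5899032, minus strand) and Stard10 (chr7:101316836-101317085, plus strand). For Myh6 the 216 bases without an annotated exon are shown (chr14:54966642-54966857, minus strand), with the match in capitals.
Myl7: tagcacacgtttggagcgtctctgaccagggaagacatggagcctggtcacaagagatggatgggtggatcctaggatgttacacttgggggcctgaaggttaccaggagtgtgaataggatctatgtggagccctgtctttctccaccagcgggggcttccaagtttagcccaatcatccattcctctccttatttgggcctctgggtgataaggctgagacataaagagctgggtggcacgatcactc
Stard10: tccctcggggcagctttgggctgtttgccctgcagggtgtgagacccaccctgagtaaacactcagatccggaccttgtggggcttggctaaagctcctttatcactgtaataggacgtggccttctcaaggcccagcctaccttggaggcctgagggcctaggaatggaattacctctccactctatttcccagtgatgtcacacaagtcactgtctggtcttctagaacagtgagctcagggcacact
Myh6: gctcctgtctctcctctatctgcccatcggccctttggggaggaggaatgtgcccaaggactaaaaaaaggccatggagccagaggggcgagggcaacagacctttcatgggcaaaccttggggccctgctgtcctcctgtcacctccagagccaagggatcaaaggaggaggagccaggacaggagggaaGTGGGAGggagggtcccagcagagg
Both strands were searched for 4 motifs, of which AGGTGT and GTGGGAG can share letters. The nuclear receptor half-site AGGTCA occurs in 14% of 32851 windows of this length. The T-box core AGGTGT occurs in 11.8% of them. A GATA site, AGATAA, is found in 9.99%. GTGGGAG, a site of the kind bound by WT1, is found in 8.25%. The windows of the 6 genes held 1 match, GTGGGAG in Myh6, from 59 to 53 bases before the start. Not all of these windows are free of exons. Those of Nr2f1 lie wholly within annotated exons of Nr2f1, and that of Nr2f2 within exons of B130024G19Rik. In the window of Myl4, 208 of 250 bases lie within exons of Cdc27. A match of this length is a description of letters and says nothing of binding in these hearts.

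Set against its ventricular counterpart in the same heart, each atrial myosin chain was lower in the mutant. The ratio of Myl7 to Myl2 in FPKM was 0.357, 0.278 and 0.357 in wild type and 0.221, 0.167 and 0.228 in mutant hearts. The mean of its log2 was -1.61 ± 0.21 against -2.30 ± 0.25 (SD, n = 3 each), a difference of -0.69. For Myl4 to Myl3 the ratios were 0.823, 0.716 and 0.702 against 0.692, 0.634 and 0.641, a log2 difference of -0.19. For Myh6 to Myh7 they were 1.73, 1.38 and 2.10 against 1.30, 1.04 and 0.931, a log2 difference of -0.66. In none of the 3 ratios did the groups overlap, although the levels of Myl4 and of Myh6 by themselves overlapped. For Myl4 to Myl3 the gap was narrow (0.702 against 0.692). How often ratios of other genes separate in this way was not computed. Among single genes 4.59% were lower without overlap in CPM, and 11.2% did not overlap in either direction. No such share was computed in FPKM, the measure of these ratios. The 3 ratios use the chosen genes and the same contrast, so they too are descriptions.

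**Figure D3:**
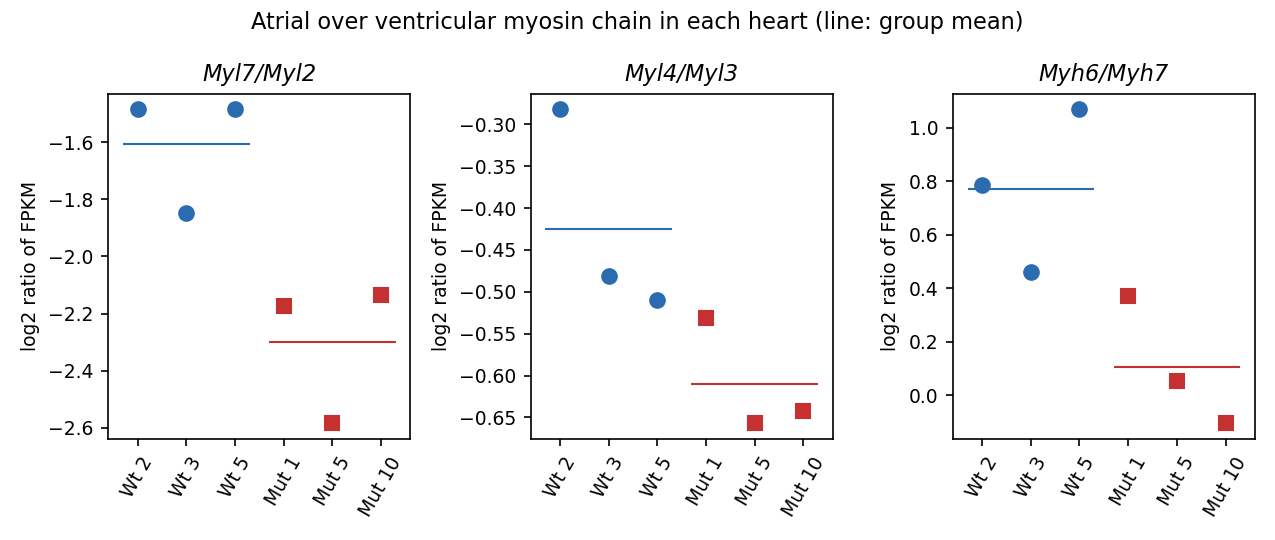
Log2 ratio of FPKM between an atrial myosin chain and its ventricular counterpart in each heart (circles wild type, squares mutant), with a line at the mean of 3 hearts. In each panel the 3 mutant hearts lie below the 3 wild type hearts, by a mean of 0.69 for Myl7 over Myl2, of 0.19 for Myl4 over Myl3 and of 0.66 for Myh6 over Myh7.

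The ventricular side of these ratios was higher in the mutant in its mean. Myl2, the ventricular regulatory light chain, had a log2 fold change of 0.21 (SE 0.14, adjusted p = 0.968 in edgeR's test), Myl3 of 0.20 (SE 0.17, adjusted p = 0.985) and Myh7 of 0.32 (SE 0.34, adjusted p = 0.985). Myh7 stood at 996, 923 and 356 FPKM in wild type and 797, 1020 and 939 FPKM in mutant hearts, so wild type replicate 5, which was also the lowest in Myh6, decided its direction (log2 fold change -0.0193 without it). Of 11 ventricular genes all 11 were higher in the mutant mean, and 9 to 11 were under every alternative tried, with a median of 0.26. None was called by edgeR or by DESeq2, and 4 had an unadjusted p under 0.05 with a higher level (3.14% of all genes tested did): Irx3, Irx4 and Irx5, Iroquois factors of the ventricle, and Pln, the inhibitor of the sarcoplasmic calcium pump. Irx5 had the smallest p (0.31, SE 0.09, adjusted p = 0.652 in edgeR's test) and Irx4 was at 29.7, 31.0 and 28.0 FPKM in wild type against 36.0, 34.7 and 35.1 (0.29, SE 0.09, adjusted p = 0.688). Hey2, a Notch target of the compact ventricle, differed by 0.09 (SE 0.11, adjusted p = 0.985).

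Other atrial genes did not share 1 direction. They were not checked against separate chambers, and at least Nppa is also made by ventricular muscle at this stage. Of 19 genes, 12 were lower and 7 higher in the mutant hearts, and the median was -0.11 (0.0015 without mutant replicate 10). None was called by edgeR, 4 had an unadjusted p under 0.05 with a lower level (Kcna5, Vsnl1, Mybphl and Hey1, against 2.59% of all genes) and 3 with a higher level (Clu, Bmp10 and Chrm2, against 3.14%). DESeq2 called 3, Kcna5, Vsnl1 and Clu (0.677% of all genes). Kcna5, the channel of the ultrarapid delayed rectifier potassium current, was at 8.71, 7.69 and 7.57 FPKM in wild type and 4.88, 4.52 and 4.76 in mutant hearts (-0.73, SE 0.11, adjusted p = 0.133 in edgeR's test, 8.9e-05 in DESeq2). Vsnl1, a neuronal calcium sensor protein, stood at 19.9, 22.0 and 28.9 FPKM against 12.2, 10.1 and 12.5 (-0.99, SE 0.17, adjusted p = 0.199 in edgeR's test). Clu, the secreted chaperone clusterin, was higher in the mutant, at 172, 191 and 146 FPKM against 232, 273 and 252 (0.61, SE 0.13, adjusted p = 0.350).

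Nppa and Sln, which are often used to mark atrial muscle, were variable. Nppa, the atrial natriuretic peptide, stood at 310, 101 and 114 FPKM in wild type and 132, 156 and 97.0 in mutant hearts, so the wild type mean rested on replicate 2, without which the direction turned to 0.28 (log2 fold change -0.42, SE 0.40, adjusted p = 0.985 in edgeR's test). Sln, the small inhibitor of the calcium pump in atria, was at 32.8, 30.2 and 98.0 FPKM in wild type, the last in replicate 5, and at 40.2, 28.0 and 52.6 in mutant hearts (-0.38, SE 0.46, adjusted p = 0.985, and 0.40 without wild type replicate 5). Exons of Gm13054, on the opposite strand and read at 16 to 77 counts, cover 61.5% of the exon bases of Nppa. Whether counting took strand into account is not known, so the counts of Nppa are uncertain. At E13.5 Nppa is also made by trabecular ventricular muscle.

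**Figure D4:**
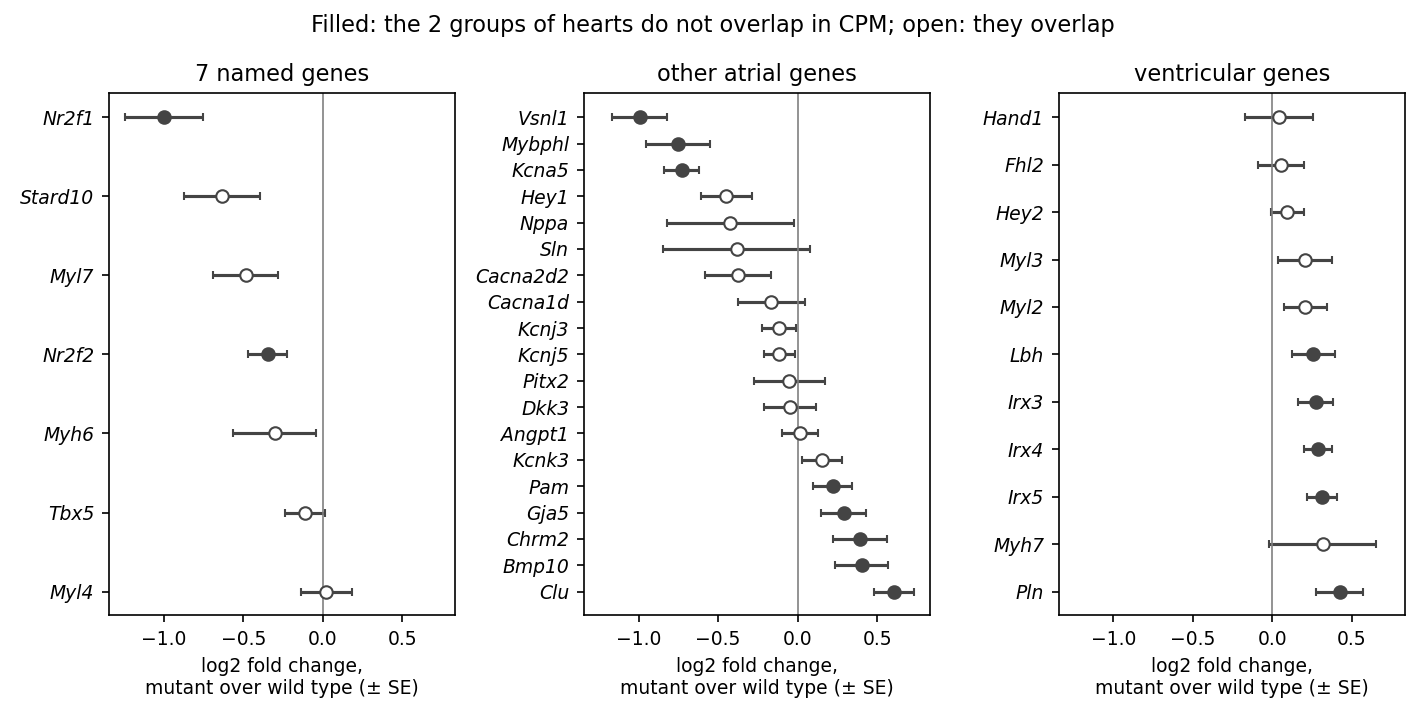
Log2 fold change of mutant over wild type hearts with its standard error, for the 7 genes, 19 other atrial genes and 11 ventricular genes. Filled points mark genes whose 2 groups of hearts do not overlap in CPM. The atrial genes lie on both sides of 0, from Vsnl1 at -0.99 to Clu at 0.61, and all 11 ventricular genes lie above 0.

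Among the other myosin chains, 17 of 21 were tested, 7 higher and 10 lower, with a median of -0.13 (from -0.13 to -0.0051 with 1 heart left out). None was called by edgeR, nor by DESeq2, which gave Myh3 no adjusted p. Myh8 and Myl1 had an unadjusted p under 0.05 with a lower level (2.59% of all genes did). Myh8, a heavy chain of fetal skeletal muscle, reached 1.43 FPKM in wild type replicate 3 and at most 0.262 FPKM elsewhere (log2 fold change -2.14, SE 0.85, adjusted p = 0.838 in edgeR's test, and -0.51 without that heart). Myl1 stood at 283, 215 and 332 FPKM in wild type and 230, 149 and 195 in mutant hearts (-0.50, SE 0.21, adjusted p = 0.847).

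Markers of the cells in the hearts give the composition beside these values, and most of their medians rested on single hearts. The 9 cardiomyocyte markers (9 higher, median 0.11, but -0.0134 when wild type replicate 5 was left out and 0.18 when replicate 2 was, Myom1 with the smallest p at an adjusted p of 0.985) summed to 15429 to 17071 FPKM in wild type and 16685 to 17200 in mutant hearts. Actc1 (mean 9532 FPKM over the 6 hearts) and Tnnt2 (3257) made up most of these sums, and Ryr2 (12.7) almost none. Per summed cardiomyocyte marker, the log2 differences were -1.10 for Nr2f1, -0.42 for Nr2f2, -0.18 for Tbx5, -0.55 for Myl7, -0.05 for Myl4, -0.30 for Myh6 and -0.67 for Stard10. The COUP-TFs are also made by other cells: COUP-TFII by venous endothelium, and both by mesenchyme. The 6 venous and lymphatic markers summed to 69.8 to 89.4 FPKM in wild type and 72.0 to 91.4 in mutant hearts (4 higher, 2 lower, median 0.05, from -0.10 without wild type replicate 5 to 0.14 without wild type replicate 2, Lyve1 with the smallest p at an adjusted p of 0.846). The 5 endothelial markers summed to 174 to 265 and 232 to 293 FPKM (5 higher, median 0.30, from 0.14 without wild type replicate 5 to 0.47 without wild type replicate 2, Pecam1 at 0.954). The 6 fibroblast and mesenchyme markers summed to 906 to 1306 and 1290 to 1746 FPKM (4 higher, 2 lower, median 0.13, from -0.0070 without mutant replicate 5 to 0.23 without mutant replicate 10). In that list Tcf21, at 43.8, 36.2 and 46.9 FPKM against 23.3, 18.7 and 16.1, was the only gene called by DESeq2 (-1.10, SE 0.15, adjusted p = 0.113 in edgeR's test). The 6 epicardial markers summed to 80.6 to 166 and 96.4 to 178 FPKM (4 higher, 2 lower, median 0.14, from -0.13 without mutant replicate 10 to 0.36 without mutant replicate 1, and also below 0 without wild type replicate 5, Upk1b at 0.664). EdgeR called none of these genes, and DESeq2 called Tcf21 alone (0.677% of all genes it tested). In edgeR's test 6 had an unadjusted p under 0.05 (Lyve1, Col1a1, Upk1b and Msln higher, Aplnr and Tcf21 lower), against 5.73% of all genes. The part of these cells in the levels of the 7 genes was not tested.

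Markers listed for liver, skeletal muscle, foregut, blood and nerve cells were present unevenly, and cells of the last 2 kinds also belong to a whole heart. The 5 hepatocyte markers summed to 835 FPKM in wild type replicate 3, to 0.828 and 17.7 FPKM in wild type replicates 2 and 5, and to between 0.745 and 21.7 FPKM in the mutant hearts, so 1 heart stood apart (median over 4 tested -4.45, and 0.18 without wild type replicate 3, Alb at an adjusted p of 0.659), and the 7 skeletal muscle markers were spread over 58.9 to 99.6 and 60.5 to 78.1 FPKM (median -0.64 over 6 tested, Myog at 0.713). The 7 foregut markers summed to 0.352, 2.40 and 6.71 FPKM in wild type and 1.10, 6.34 and 0.551 in mutant hearts (median -0.11, Krt5 at 0.956). They were highest in replicate 5 of each group. Myl7 and Stard10 were highest in wild type replicate 5 and lowest in mutant replicate 5. The 7 erythroid markers summed to 22477 to 50425 and 17729 to 55542 FPKM (median -0.11, from -0.72 without mutant replicate 10 to 0.15 without mutant replicate 5, Klf1 at 0.939). For the 5 neuron and neural crest markers the sums were 10.8 to 12.8 and 8.52 to 12.8 FPKM (median -0.35, Stmn2 at 0.915). No gene of these 5 lists was called by edgeR, and none by DESeq2, which gave no adjusted p for the 5 hepatocyte genes, Myod1, Sftpc and Tnnc2. Of the lists, 3 hepatocyte and 3 skeletal muscle genes had an unadjusted p under 0.05 in edgeR's test, all lower in the mutant (2.59% of all genes were). Wild type replicate 3 also stood apart in Myod1 (3.11 FPKM, at most 0.301 elsewhere) and Myog (13.9 FPKM, at most 1.80 elsewhere). Actn3 was not set apart there (4.12 FPKM, against 3.75 in wild type replicate 2). Without wild type replicate 3 the log2 fold changes were -1.15 for Nr2f1, -0.38 for Nr2f2, -0.13 for Tbx5, -0.62 for Myl7, -0.06 for Myl4, -0.29 for Myh6 and -0.83 for Stard10. The part of these tissues and cells in the levels of the 7 genes was not tested.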

How the data were processed

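Total RNA of 6 whole E13.5 mouse hearts was sequenced, 1 heart per library, with 3 hearts a group by the genotype in the labels. Per the methods of the study, the authors aligned the trimmed reads to mm10 with STAR and assigned uniquely mapped reads to genes with featureCounts, whereas the submitters' processing notes name HTSeq and DESeq2. The authors deposited the raw count of each gene in each heart, and FPKM values whose making is not given in the sources used here. In the values, each deposited FPKM is the count over 1 fixed length per gene and the total of the heart (largest relative deviation 7.99e-15). A table of group means was not used.

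Counts were compared with edgeR 4.0.16 (R 4.3.3), by glmQLFit and glmQLFTest with TMM factors, filterByExpr (minimum count 10, minimum total 15) and no covariates, two-sided, with a Benjamini-Hochberg adjusted p under 0.05 over all genes as the threshold. CPM are counts scaled to a common library total after TMM. Standard errors are the log2 fold change over the root of the F statistic. Alternatives were DESeq2 1.42.0, limma 3.58.1 (voom, and trend on log2 of FPKM plus 1 or 0.1), RLE factors, no filter, CPM of at least 1 in 3 hearts, offsets following gene length, and each heart left out. DESeq2 and the length offsets were also run without wild type replicate 5, chosen after seeing the data. The fit was tested on simulated data.

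The 7 genes and the lists were chosen with earlier results of these data known. Beside the 7, the rule for naming took from each list the genes past the threshold or otherwise the gene with the smallest p, a set of chamber and partner genes, and the 2 genes nearest to each of the 7 in centred log2 CPM. Other list genes named had an unadjusted p under 0.05 and were chosen after their values were seen. A planned list gene is not reported here. Of the 16 START symbols, 14 were matched, and those not matched are other names of listed genes. Positions are from GENCODE M21, in which 46488 of 46983 gene identifiers matched, and start sites from RefSeq on GRCm38.p6.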

Additional observations from a re-analysis of the deposited data

How the results depend on the processing

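Over 16 alternatives, Nr2f1, Nr2f2, Tbx5, Myl7 and Stard10 kept a lower mean in the mutant in 16 of 16, Myh6 in 15 and Myl4 kept its sign in 12. No log2 fold change of the 7 genes, and no ratio between them, moved by more than the spread between hearts. Nr2f1 was called by DESeq2 only, and Myh6 only by DESeq2 without wild type replicate 5. Of the counts and values without a test, 42 moved past 1.5 times or past the spread. Genes called over all genes numbered 132 with DESeq2, 34 with no filter, 6 with length offsets, 0 to 44 with 1 heart left out (44 without wild type replicate 5), and, without that heart, 447 with DESeq2 and 43 with length offsets. Other atrial genes called numbered 3 with DESeq2, 1 with no filter, 0 to 2 with 1 heart left out, and 4 with DESeq2 and 2 with length offsets without wild type replicate 5. The last 2 settings called 1 sinus venosus and 1 fibroblast gene, as did DESeq2, no filter and leaving out a heart (0 to 1), and length offsets called 1 sinus venosus gene. DESeq2 without wild type replicate 5 also called 2 ventricular, 2 myosin, 1 Tbx5 partner and 1 skeletal muscle gene. The ventricular median lay between 0.17 and 0.26 with 1 heart left out. The myosin median was -0.0904 with the CPM filter, -0.0527 with length offsets, -0.16 on FPKM plus 0.1, -0.13 to -0.0051 with 1 heart left out, and -0.10 (DESeq2) and -0.11 (length offsets) without wild type replicate 5. With 1 heart left out, the foregut median ran from -1.87 to 2.34, the hepatocyte median from -8.01 to 0.18 and the neuron median from -0.59 to -0.0753. Without wild type replicate 5, DESeq2 gave 2.55 and length offsets 2.34 for foregut, and -0.0795 and -0.0748 for neurons. Kcna5, Vsnl1, Shox2 and Tcf21 were called in 4, 5, 6 and 5 of the 16 alternatives. Of 33 other genes tried, 26 kept their direction in every alternative. Signs turned with 1 heart left out for Wt1 (-0.334 to 0.157), Nppa (-0.701 to 0.277), Sln (-0.670 to 0.403), Myh7 (-0.0193 to 0.562), Nr2f6 (-0.201 to 0.0586), Zfpm2 (-0.117 to 0.168) and Gata4 (-0.123 to 0.155). The fits without wild type replicate 5 by DESeq2 and by length offsets gave 0.400 and 0.342 for Sln, 0.0549 and 0.00179 for Nr2f6, -0.121 and -0.0800 for Zfpm2, and -0.126 and -0.129 for Gata4. DESeq2 then gave -0.0224 for Myh7, and length offsets with all hearts gave -0.0256 for Zfpm2. The cause was not tested. No paired analysis was possible because the groups share only 1 replicate number.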

Other observations

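The 6 markers of the sinus venosus and pacemaker tissue, which adjoins the atria, were lower in the mutant for 5 genes and higher for 1, and their median log2 fold change was -0.26 (from -0.43 without wild type replicate 2 to -0.15 without wild type replicate 3). None was called by edgeR's quasi-likelihood test, and 2 (Shox2 and Isl1) had an unadjusted p under 0.05 with a lower level (2.59% of all genes did). DESeq2 called 1, Shox2 (0.677% of all genes it tested). Shox2, a homeobox factor needed for the sinus node, stood at 20.5, 22.3 and 23.4 FPKM in wild type and 11.7, 9.5 and 10.7 FPKM in mutant hearts, without overlap (log2 fold change -1.02, SE 0.12, adjusted p = 0.0991 in edgeR's test). Isl1, a factor of the second heart field that the sinus node keeps, stood at 3.59, 4.31 and 4.97 FPKM against 3.12, 2.91 and 2.0 FPKM (-0.66, SE 0.21, adjusted p = 0.696). The summed level of the list was 59.8 to 67.8 FPKM in wild type and 46.4 to 51.2 FPKM in mutant hearts.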
